A study of Mus musculus with 20 samples.

Results

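GABA-A receptors are the chloride channels through which the transmitter GABA inhibits neurons, and 8 of their subunit genes are described here in the brains of mice that lack Katnal2. The genes are Gabra2, Gabra3, Gabra4, Gabra5, Gabra6, Gabrd, Gabrg1 and Gabrg3, chosen by name from the alpha, delta and gamma families without use of their values, and all 8 were found among the 19463 genes of the table. Each receptor is a ring of subunits around a chloride pore, usually built from alpha and beta subunits with a gamma or a delta subunit, and the alpha subunit sets much of its affinity for GABA and its drug response. Receptors with a gamma subunit mostly gather at synapses and answer brief pulses of GABA. Receptors with the delta subunit lie outside synapses, pair with the Gabra6 product in cerebellar granule cells and with the Gabra4 product in the forebrain, and give a lasting inhibition at low GABA.

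Bulk RNA-seq of poly-A RNA from the whole brain covered 20 male mice, 5 Katnal2-KO and 5 WT at each of 2 ages, 3 weeks (P21) and 10 weeks (P70). All mice were on the C57BL/6J background after backcrossing of a EUCOMM line (Katnal2tm1a). The KO allele was made by mating to Protamine-Flp mice and treating early embryos with the cell-permeable Cre HTNC, so exon 3 is deleted in every tissue and from the germ line onward rather than in chosen cells. In whole brain, fewer cells of a type and less RNA per cell cannot be told apart. The gene-level value of Katnal2, which also counts exons outside the deletion, was 78.1 to 96.0 normalized counts in P21 KO mice against 99.3 to 115.4 in P21 WT mice, and 95.1 to 125.5 against 101.3 to 141.5 at P70, so at P70 it does not separate the genotypes.

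The 8 genes lie on 5 chromosomes, all on the minus strand, in GRCm38 with GENCODE M21 annotation. Gabrg1 (chr5:70751047-70842617), Gabra2 (chr5:70957597-71095849) and Gabra4 (chr5:71569749-71658308) share a cluster on chromosome 5. Gabrg3 (chr7:56716465-57387188) and Gabra5 (chr7:57407672-57510059) are neighbours on chromosome 7. Gabra6 (chr11:42306437-42321072), Gabrd (chr4:155384980-155398112) and Gabra3 (chrX:72432681-72656848) stand on chromosomes of their own. Their principal transcripts differ more than their proteins do. Coding lengths run from 1332 bases in Gabra6 to 1659 bases in Gabra4, whereas the 3′ UTR runs from 421 bases in Gabrd to 7948 bases in Gabrg3. The GC content of the transcript is 35.3% in Gabrg1, 38.4% in Gabra2 and 39.7% in Gabra6, between 42.2% and 47.1% in Gabra4, Gabrg3, Gabra3 and Gabra5, and 56.8% in Gabrd. The spans of Gabra4 and Gabra5 overlap genes on the opposite strand, and the library kit keeps no strand, so reads from shared bases cannot be told apart.

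The 5 alpha genes fall into 2 pharmacological classes, and 1 codon shows the split. At this place in the ligand-binding domain a histidine allows classical benzodiazepines such as diazepam to act, and an arginine makes the receptor insensitive to them. The 27 bases around the codon are printed below 5′ to 3′ from the coding sequence of each principal transcript, with the codon in capitals.
Gabra2: gataccttctttCACaatgggaaaaag
Gabra3: gataccttcttcCACaatggtaaaaaa
Gabra5: gacacgttcttcCACaacggcaagaag
Gabra4: gatactttcttcAGGaatggaaagaaa
Gabra6: gacacttttttcCGGaatgggaaaaag
The codon reads histidine in Gabra2 (exon 5, chr5:71014505-71014507), Gabra3 (exon 5, chrX:72501168-72501170) and Gabra5 (exon 5, chr7:57488891-57488893). It reads arginine, by different codons, in Gabra4 (exon 4, chr5:71641152-71641154) and Gabra6 (exon 4, chr11:42317647-42317649). All 5 codons are exonic and coding. The results below follow this split, then the delta subunit and then the gamma subunits.

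The deposited values, called normalized counts here, summed to between 27310523 and 28423042 per mouse, and the spacing of low values placed the depth near 25800000 to 36300000 reads per P21 mouse and 23400000 to 27500000 per P70 mouse. Age and depth therefore moved together. 2 P70 libraries stood apart, replicate 5 of each genotype. The SD over genes of the log2 deviation from the group median was 0.62 in the KO and 0.50 in the WT mouse, against 0.23 to 0.39 in the other 18 mice. Across genes, which are not independent replicates, that deviation correlated with transcript GC content at r = 0.53 and r = 0.49, against -0.16 to 0.15 in the other 18. The age difference of each receptor gene is given with and without this pair. Other P70 values are given without it for some genes and lists only. RNA quality as a source was not tested.

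The replicate 5 pair decided the outer values of the receptor genes at P70. Set against the other 8 P70 mice, the pair was lower by log2 differences of -0.97 in Gabra2, -0.70 in Gabra4, -0.68 in Gabrg1, -0.54 in Gabrg3, -0.51 in Gabra6, -0.33 in Gabra3 and -0.16 in Gabra5. Gabrd alone among the 8 was higher, by 0.42. The median over all genes tested was 0.02. Gabrd has the most GC-rich and the shortest transcript of the 8. Over all genes, split into 4 equal bins, the median difference was -0.42 in the bin with 28.7% to 45.3% GC and 0.40 in the bin with 54.9% to 78.3% GC. By transcript length it went from 0.30 in the bin of the shortest transcripts to -0.28 in that of the longest. GC content and length thus moved with the difference, and their part in it was not tested beyond the length and GC correction given with the results.

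**Figure D1:**
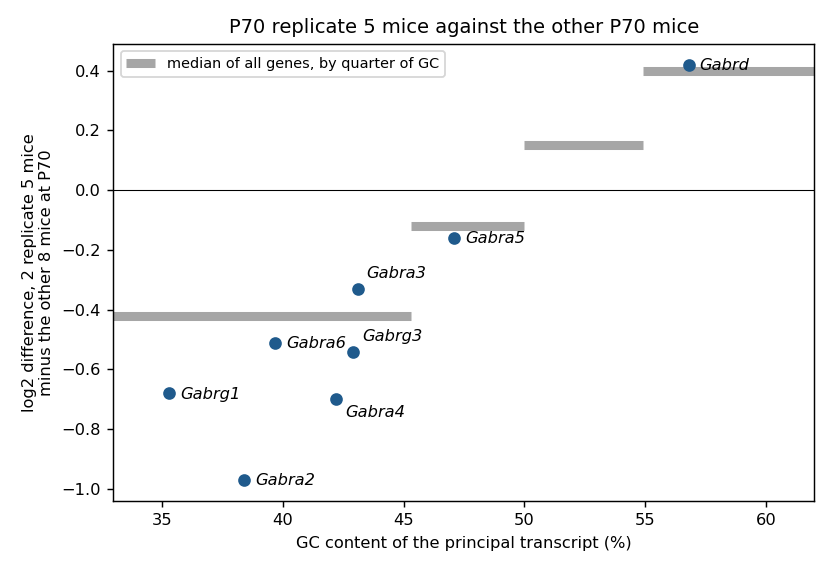
Log2 difference between the 2 P70 replicate 5 mice and the other 8 P70 mice (vertical axis) for the 8 receptor genes, set against the GC content of the principal transcript in percent (horizontal axis), with grey bars for the median of all genes in each of 4 bins of GC content. Gabrd, at 56.8% GC, is at 0.42, and the other 7 genes lie between -0.97 and -0.16.

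Per kilobase of principal transcript, the 8 genes kept 1 order of group means in all 4 groups. Gabrd was highest, at 1130 ± 51.3 normalized counts per kilobase in P21 WT mice (SD, n = 5) and 1154 ± 179 in P70 WT mice. Gabra6 followed with 1000 ± 90.9 and 934 ± 141, then Gabra3 with 713 ± 27.1 and 783 ± 81.5. Gabrd and Gabra6 are both abundant in cerebellar granule cells, the most numerous neurons of the brain. Gabra4 stood at 633 ± 23.7 and 571 ± 103 per kilobase and Gabra5, which is best known from hippocampal pyramidal cells, at 585 ± 43.0 and 524 ± 28.8. Gabra2, found at synapses on the axon initial segment of cortical neurons, reached 261 ± 14.2 and 260 ± 58.3. The gamma genes were lowest, with Gabrg1 at 133 ± 11.9 and 132 ± 25.1 and Gabrg3 at 94.1 ± 8.5 and 83.1 ± 14.3. The order rests on dividing by the length of 1 annotated transcript per gene. Without that division, Gabra3 had a higher mean than Gabrd in P21 WT mice, 2609 against 2171 normalized counts. Gabrg3 was then above Gabrg1, at 919 against 636.

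Not every step of the per-kilobase order exceeded the spread between mice. At P21 the ranges of Gabrd and Gabra6 overlapped, as did those of Gabra4 and Gabra5, in both genotypes, and the other 5 neighbouring pairs were separate. At P70 only Gabra5 against Gabra2 was separate in WT mice, whereas 4 of 7 steps were separate in KO mice. Without the replicate 5 pair, 6 of 7 steps were separate in P70 WT mice, all but Gabrd against Gabra6, and 5 of 7 in P70 KO mice, all but Gabra6 against Gabra3 and Gabra4 against Gabra5. The order of means was unchanged.

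**Figure D2:**
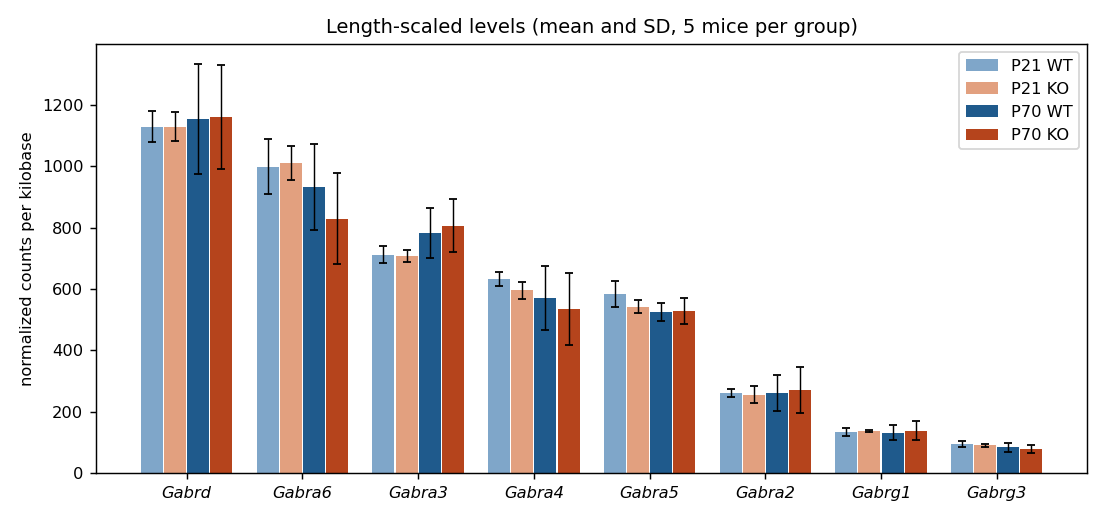
Group means of normalized counts per kilobase of principal transcript (bars, axis from 0) with SD (error bars, 5 mice per group) for the 8 genes in the 4 groups. Gabrd, Gabra6 and Gabra3 are the tallest in every group, and Gabrg1 and Gabrg3 stay under 200.

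Of the per-kilobase sum of the 5 alpha genes, the benzodiazepine-insensitive Gabra4 and Gabra6 together made up 51.2% ± 2.0 in P21 WT and 51.6% ± 1.7 in P21 KO mice (SD, n = 5). At P70 their share was 48.8% ± 2.2 in WT and 45.7% ± 2.9 in KO mice, and without replicate 5 it was 49.6% ± 1.6 and 46.5% ± 2.8 (n = 4). Gabra3 went from 22.3% ± 0.9 to 25.5% ± 0.8 of the sum in WT mice and from 22.7% ± 0.5 to 27.3% ± 2.0 in KO mice. Gabra6 went from 31.3% ± 2.8 to 30.3% ± 1.3 and from 32.5% ± 1.6 to 27.9% ± 2.4. Without replicate 5 the P70 shares were 25.2% ± 0.4 and 26.6% ± 1.5 for Gabra3 and 30.6% ± 1.4 and 28.0% ± 2.7 for Gabra6. These shares are descriptive and were not tested.

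**Figure D3:**
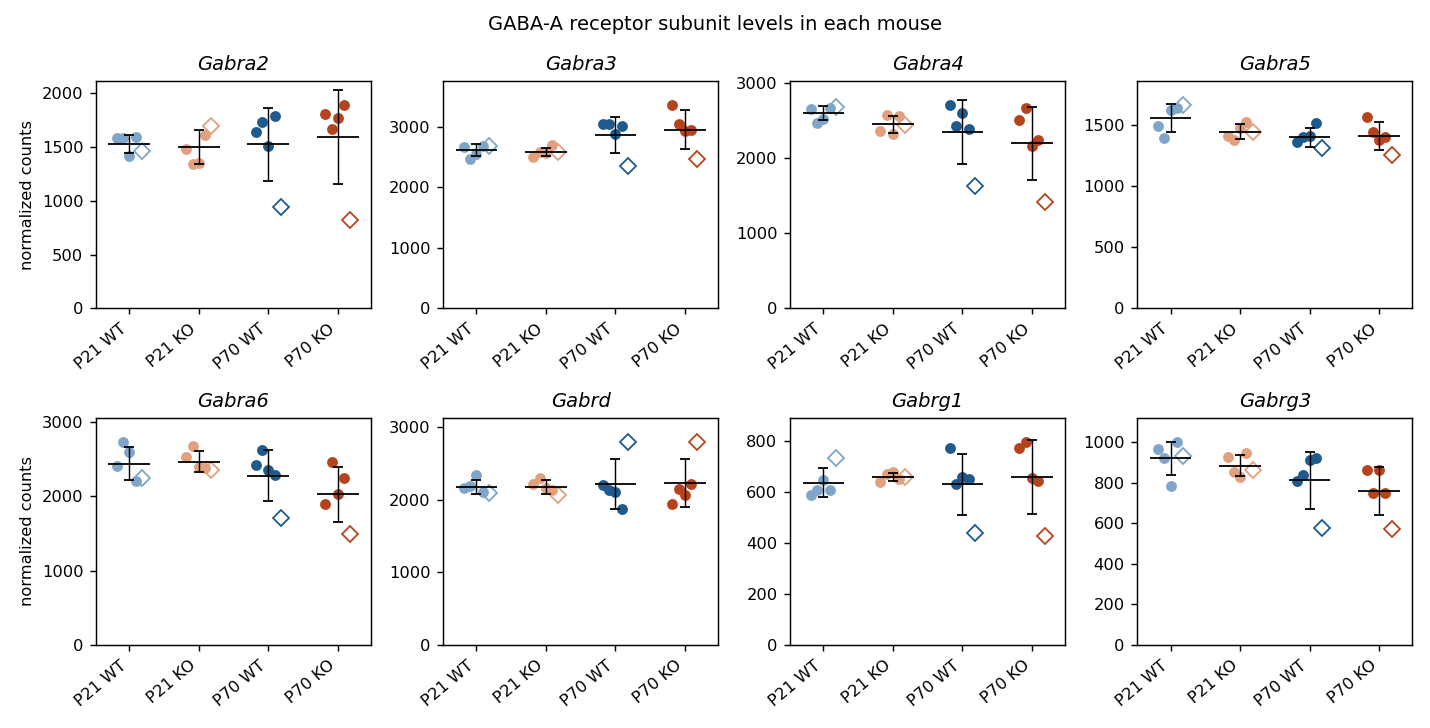
Normalized counts of each of the 8 genes (vertical axis) in each of the 20 mice, grouped by age and genotype, with the mean and SD of 5 mice as lines and replicate 5 of each group as an open diamond. At P70 the diamonds lie lowest of their groups in 7 genes and highest in Gabrd.

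Gabra3, whose protein is prominent in the reticular thalamus and on monoamine neurons, was the 1 receptor gene called between the ages in both genotypes, and this held only without replicate 5 or after correcting for length and GC. In WT mice its normalized counts were 2662, 2466, 2545, 2689 and 2684 at P21 and 3042, 3046, 2876, 3016 and 2346 at P70 (replicates 1 to 5). In KO mice they were 2495, 2590, 2570, 2693 and 2589 at P21 and 3354, 3050, 2935, 2952 and 2472 at P70. In both genotypes, the first 4 P70 mice lay above all 5 P21 mice and replicate 5 lay below all 5. With all mice, the limma log2 fold change of P70 over P21 was 0.13 ± 0.08 (SE; adjusted p = 0.337) in WT and 0.18 ± 0.08 (adjusted p = 0.175) in KO mice, neither past the threshold of 0.05. Without replicate 5, Gabra3 rose by 0.20 ± 0.05 (adjusted p = 0.0112) in WT and by 0.25 ± 0.05 (adjusted p = 0.0034) in KO mice. When all mice were corrected for length and GC, the values were 0.17 (adjusted p = 0.0112) and 0.23 (adjusted p = 0.00352).

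Gabra2 normalized counts were 1586, 1585, 1415, 1589 and 1460 in P21 WT mice and 1641, 1731, 1510, 1791 and 943 in P70 WT mice. Those of KO mice were 1483, 1343, 1348, 1606 and 1699 at P21 and 1802, 1670, 1766, 1886 and 820 at P70. Replicate 5 was the lowest of all mice in each genotype, at 56.6% of the mean of the other 4 P70 mice in WT and 46.0% in KO mice. The remaining P70 mice overlapped the P21 mice in both genotypes. The age difference was -0.04 ± 0.14 in WT (adjusted p = 0.911) and 0.03 ± 0.20 in KO mice (adjusted p = 0.947) on the log2 scale. Without replicate 5 it was 0.13 ± 0.06 (adjusted p = 0.19) in WT, and in KO mice Gabra2 rose by 0.26 ± 0.07 (adjusted p = 0.0258). The correction for length and GC gave 0.08 (adjusted p = 0.449) in KO mice, so the rise of Gabra2 depends on leaving out that library.

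Gabra5, the third gene with the histidine codon, lay between 1395 and 1663 normalized counts in P21 WT mice, 1312 and 1519 in P70 WT mice, 1382 and 1530 in P21 KO mice and 1258 and 1571 in P70 KO mice. All 4 ranges overlapped. Its age difference was -0.16 ± 0.07 (adjusted p = 0.196) in WT mice, -0.13 ± 0.06 without replicate 5 (adjusted p = 0.173), and in KO mice -0.04 ± 0.07 (adjusted p = 0.797) and 0.00 ± 0.05 (adjusted p = 0.988).

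Gabra6, which is made almost only by cerebellar granule cells, had normalized counts of 2401, 2724, 2593, 2207 and 2249 in P21 WT mice and 2416, 2621, 2352, 2279 and 1706 in P70 WT mice. In KO mice they were 2522, 2676, 2387, 2374 and 2353 at P21 and 1891, 2456, 2022, 2244 and 1495 at P70. In KO mice only replicate 2 at P70, at 2456, reached into the P21 range, whereas in WT mice 4 of the 5 P70 values lay within it. The age difference in KO mice was -0.30 ± 0.11 (adjusted p = 0.131), -0.20 ± 0.07 without replicate 5 (adjusted p = 0.0696) and -0.25 (adjusted p = 0.0404) after correcting for length and GC. In WT mice it was -0.11 ± 0.11 (adjusted p = 0.576), -0.01 ± 0.07 (adjusted p = 0.953) and -0.04 (adjusted p = 0.772).

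Markers of cerebellar granule cells are set beside Gabra6, which was not called with all mice. The summed level of 7 markers was 22317 to 26479 normalized counts in P21 KO and 17680 to 22663 in P70 KO mice, and 21533 to 27820 in P21 WT and 19711 to 22932 in P70 WT mice, with all 7 detected. With age, 4 of the 7 fell in KO mice (Cbln1, Cbln3, Neurod1 and Fat2) and Svep1 rose, while in WT mice Cbln1 fell and Svep1 rose. Without replicate 5, 5 of 7 fell in KO and 1 in WT mice. The part of granule cell content in the Gabra6 values was not tested.

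Gabra4, the other gene with an arginine codon and the partner of the delta subunit in thalamus, striatum and dentate gyrus, lay between 2468 and 2683 normalized counts in P21 WT, 2318 and 2576 in P21 KO, 1621 and 2700 in P70 WT and 1411 and 2671 in P70 KO mice. Without replicate 5 the P70 ranges began at 2388 and 2162. The age difference was -0.17 ± 0.12 (adjusted p = 0.399) in WT and -0.19 ± 0.14 (adjusted p = 0.48) in KO mice, and -0.04 ± 0.05 (adjusted p = 0.622) and -0.04 ± 0.06 (adjusted p = 0.732) without replicate 5.

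Gabrd encodes the delta subunit. Its normalized counts were 2153, 2190, 2330, 2098 and 2084 in P21 WT and 2197, 2128, 2109, 1863 and 2789 in P70 WT mice. In KO mice they were 2219, 2295, 2154, 2129 and 2056 at P21 and 1942, 2146, 2059, 2216 and 2784 at P70. Here replicate 5 was the highest mouse of both P70 groups, at 134.5% and 133.2% of the mean of the others, and the remaining mice overlapped between the ages. The age difference changed sign with that pair, from 0.02 ± 0.09 (adjusted p = 0.932) to -0.07 ± 0.06 (adjusted p = 0.466) in WT and from 0.03 ± 0.09 (adjusted p = 0.895) to -0.05 ± 0.05 (adjusted p = 0.492) in KO mice. No change of Gabrd was called under these settings.

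Gabrg1, a gamma subunit with a restricted distribution that includes the amygdala, lay between 587 and 731 normalized counts in P21 WT, 640 and 677 in P21 KO, 439 and 770 in P70 WT and 428 and 795 in P70 KO mice. Its age difference was -0.03 ± 0.13 (adjusted p = 0.908) in WT and -0.03 ± 0.14 (adjusted p = 0.923) in KO mice, and 0.09 ± 0.08 (adjusted p = 0.492) and 0.11 ± 0.07 (adjusted p = 0.293) without replicate 5.

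Gabrg3, the third gamma subunit and the longest of the 8 genes, spanned 781 to 999 normalized counts in P21 WT, 829 to 947 in P21 KO, 578 to 922 in P70 WT and 570 to 864 in P70 KO mice. The age difference was -0.19 ± 0.12 (adjusted p = 0.357) in WT and -0.23 ± 0.11 (adjusted p = 0.225) in KO mice. Without replicate 5 it was -0.08 ± 0.08 (adjusted p = 0.537) and -0.13 ± 0.07 (adjusted p = 0.181). With the length and GC correction Gabrg3 fell by 0.18 in WT mice (adjusted p = 0.0307), and its value in KO mice was -0.19 (adjusted p = 0.0545).

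**Figure D4:**
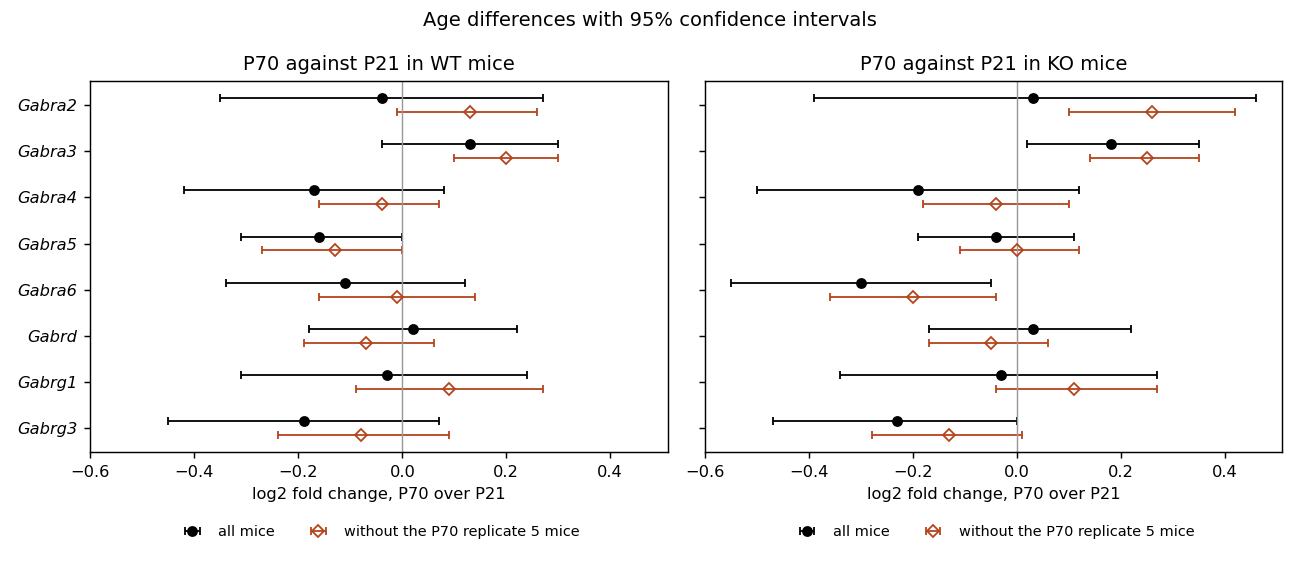
Log2 fold change of P70 over P21 (horizontal axis) with 95% confidence intervals for the 8 genes, in WT mice (left) and KO mice (right), with all mice (filled) and without the P70 replicate 5 mice (open). The open interval of Gabra3 lies above 0 in both genotypes, and that of Gabra2 does so in KO mice. In KO mice the filled interval of Gabra3 also lies above 0, and both intervals of Gabra6 lie below 0.

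Counted over the 8 genes, the age comparison called none in either genotype with all mice, where 9.32% of 17630 genes in WT and 8.32% of 17641 genes in KO mice were called (4.62% higher and 4.70% lower in WT, 3.78% and 4.53% in KO mice). At an unadjusted p under 0.05, Gabra5 alone was lower in WT mice, where 24.5% of genes changed in either direction, and Gabra3 and Gabra6 passed in KO mice, where 22.7% did. No receptor gene was free of overlap between the ages, against 10.8% of genes in WT and 10.9% in KO mice. Without replicate 5 the comparison called Gabra3 in WT mice, against 17.0% of all genes, and Gabra2 and Gabra3 in KO mice, against 21.3%. The unadjusted threshold then held Gabra3 in WT mice (31.4% of genes) and Gabra2, Gabra3 and Gabra6 in KO mice (34.1%). The 4 remaining P70 mice did not overlap the 5 P21 mice in Gabra3 in either genotype, a state shared by 17.9% of genes in WT and 20.7% in KO mice, so these counts are near the background. The median log2 fold change of the 8 genes was -0.07 in WT and -0.04 in KO mice, against 0.001 and -0.01 over all genes, and -0.03 and -0.02 without replicate 5. The WT and KO age comparisons use separate mice, but each shares its mice with the genotype comparisons.

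Every marker fixed for neurons, astrocytes, oligodendrocytes and microglia was detected, as a whole-brain label requires, and some lists moved with age. All 6 oligodendrocyte markers fell in both genotypes, and their summed level went from 379118 to 558363 normalized counts at P21 to between 144591 and 191620 at P70. All 5 blood markers fell in WT mice and 4 of 5 in KO mice (all 5 without replicate 5). The summed level of 5 general neuron markers was 123614 to 134470 at P21 and 129446 to 146313 at P70. The part of these shifts in the receptor values was not tested.

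At P21 no receptor gene passed the test between Katnal2-KO and WT mice. Of the 17610 genes tested by limma none was called (0%), with 429 genes (2.44%) at an unadjusted p under 0.05, and none of the 8 was among those. The log2 fold changes of KO over WT ran from -0.11 ± 0.06 in Gabra5 (95% interval -0.23 to 0.02) and -0.09 ± 0.05 in Gabra4 (-0.19 to 0.01) through 0.00 ± 0.05 in Gabrd (-0.10 to 0.10) to 0.05 ± 0.06 in Gabrg1 (-0.08 to 0.19), each with an adjusted p of 1. The groups overlapped in all 8 genes, and 0.460% of genes did not overlap. The median of the 8 genes was -0.02, against 0.004 over all genes.

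At P70 none of 17613 genes was called (0%), with 199 genes (1.13%) at an unadjusted p under 0.05, and again none of the 8 was among them. Gabra6 had the lowest value, -0.18 ± 0.14 (95% interval -0.49 to 0.14), followed by -0.11 ± 0.18 in Gabra4 (-0.50 to 0.29) and -0.09 ± 0.15 in Gabrg3 (-0.42 to 0.23). The other 5 genes lay between 0.01 and 0.06, and Gabra2 had the widest interval, -0.48 to 0.56. All adjusted p were 1 and all groups overlapped, as they did in all but 0.193% of genes. The replicate 5 mice of both genotypes, low in 7 genes, widened these intervals.

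Without that pair the intervals narrowed and 1 gene of 17650, Gm28438, was called at P70 (0.00567%), which is no receptor gene. Gabra6 then differed by -0.17 ± 0.08 (95% interval -0.34 to 0.00; adjusted p = 0.999). Its normalized counts were 1891 to 2456 in 4 KO mice and 2279 to 2621 in 4 WT mice. It was the 1 receptor gene under the unadjusted threshold, where 651 genes (3.69%) were. The groups still overlapped in all 8 genes, and in 2.12% of genes they did not. Gabra2 had 0.10 ± 0.06 (-0.04 to 0.23), Gabrg3 -0.11 ± 0.07 (-0.27 to 0.05), Gabrd 0.01 ± 0.06 (-0.12 to 0.15) and Gabra3 0.04 ± 0.05 (-0.08 to 0.15). The granule cell marker sum was 18477 to 22663 in these KO and 19711 to 22932 in these WT mice, and its part in the Gabra6 value was not tested.

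**Figure D5:**
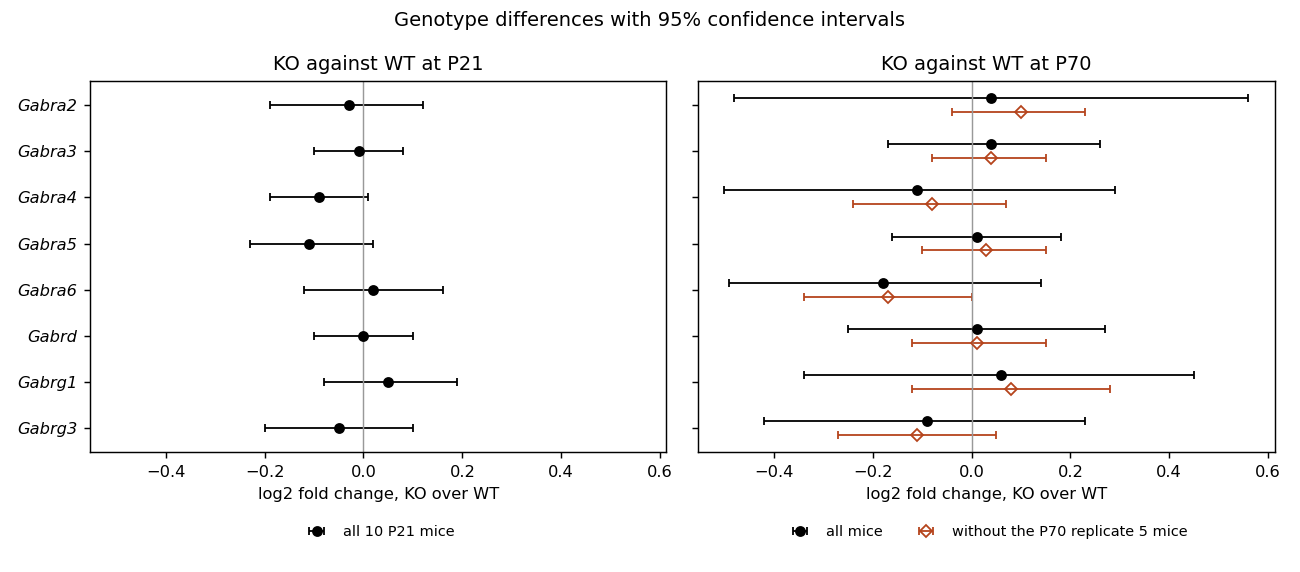
Log2 fold change of KO over WT (horizontal axis) with 95% confidence intervals for the 8 genes, at P21 (left, 10 mice) and P70 (right), at P70 with all mice (filled) and without the replicate 5 mice (open). The filled intervals all include 0.

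Whether the age difference depends on genotype was tested as an interaction over all 20 mice. No gene of 17637 was called (0%), with 296 (1.68%) at an unadjusted p under 0.05 and none of the 8 among them. The interaction, the KO age difference minus the WT age difference, was -0.19 ± 0.16 in Gabra6 (95% interval -0.54 to 0.15), 0.12 ± 0.09 in Gabra5 (-0.08 to 0.31), 0.06 ± 0.11 in Gabra3 (-0.17 to 0.28) and 0.07 ± 0.26 in Gabra2 (-0.48 to 0.62). Without replicate 5 it was -0.19 ± 0.10 in Gabra6 (-0.41 to 0.03) and 0.13 ± 0.10 in Gabra2 (-0.08 to 0.34), still with adjusted p of 1 and no receptor gene at an unadjusted p under 0.05, where 3.80% of genes were. The calls of Gabra2 in KO mice and of Gabra6 in KO mice with the length and GC correction are therefore not shown to differ from WT mice.

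The rest of the inhibitory pathway was read from 6 lists with 69 genes, of which 65 were in the table and 64 were tested. Between genotypes no pathway gene was called at either age. The smallest unadjusted limma p was 0.0448 at P21, for Gphn, the scaffold gephyrin that anchors receptors at synapses (log2 fold change 0.17 ± 0.08, adjusted p = 1). At P70 it was 0.0175 for Slc6a12, a transporter of betaine and GABA (0.60 ± 0.22, adjusted p = 1), and 0.0192 for Akr1c14, an enzyme of neurosteroid synthesis (0.63 ± 0.23, adjusted p = 1). Without replicate 5 their values were 0.75 and 0.65, each with an adjusted p of 0.999. Markers of other tissues differed in these comparisons without any being called. At P21 the 5 blood markers had a median log2 fold change of -0.75, all 5 at an unadjusted p under 0.05, and summed to 12038 to 30949 normalized counts in KO and 24464 to 61276 in WT mice. At P70 the 6 choroid plexus markers had a median of 0.38, or 0.47 without replicate 5 with 3 of 6 at an unadjusted p under 0.05, and summed to 15052 to 26830 in KO and 12178 to 26861 in WT mice. Their part in the pathway values was not tested. With age, 6 pathway genes rose and 4 fell in WT mice (background 4.62% and 4.70% of genes), and 3 rose and 6 fell in KO mice (3.78% and 4.53%). Their median log2 fold change was -0.01 in WT and -0.03 in KO mice. Without replicate 5, 14 rose and 4 fell in WT mice (background 8.89% and 8.11% of genes), and 14 rose and 10 fell in KO mice (10.6% and 10.7%).

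Among the 8 other receptor subunit genes tested, the epsilon gene Gabre fell with age in both genotypes, by 0.63 ± 0.15 on the log2 scale (adjusted p = 0.0202) in WT and by 0.93 ± 0.16 (adjusted p = 0.00333) in KO mice, and by 0.64 and 1.00 without replicate 5. Gabrr2, a rho subunit known from the retina, rose by 1.18 ± 0.32 in WT mice (adjusted p = 0.0346), and by 0.93 (adjusted p = 0.039) without replicate 5. Its value in KO mice was 0.71 ± 0.42 (adjusted p = 0.356). The other subunits were not called with all mice.

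Of 9 genes of GABA synthesis, packaging and uptake, Abat, the transaminase that breaks GABA down, fell by 0.26 ± 0.06 in KO mice (adjusted p = 0.017), with -0.17 ± 0.06 in WT mice (adjusted p = 0.0902). Of 23 anchoring and trafficking genes, 3 rose and 1 fell in WT mice, and 2 rose and 2 fell in KO mice. Trak1, a kinesin adaptor, rose by 0.28 ± 0.07 in WT (adjusted p = 0.0177) and 0.28 ± 0.06 in KO mice (adjusted p = 0.0107), and its relative Trak2 fell by 0.38 ± 0.09 (adjusted p = 0.0139) and 0.44 ± 0.10 (adjusted p = 0.0147). Plcl2 rose by 0.22 ± 0.06 (adjusted p = 0.0496) and 0.25 ± 0.06 (adjusted p = 0.0208), and Iqsec3, a partner of gephyrin at inhibitory synapses, rose in WT mice by 0.25 ± 0.07 (adjusted p = 0.042). Gphn fell by 0.39 ± 0.08 in KO mice (adjusted p = 0.0126) and had -0.25 ± 0.10 in WT mice (adjusted p = 0.143). Each of these calls held without replicate 5, with 0.31 in WT and 0.31 in KO mice for Trak1, -0.31 and -0.35 for Trak2, 0.23 and 0.25 for Plcl2, 0.26 in WT mice for Iqsec3 and -0.24 and -0.41 in KO mice for Abat and Gphn. After correcting for length and GC, Iqsec3 in WT mice had 0.15 (adjusted p = 0.105).

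The chloride gradient decides whether an open GABA-A receptor inhibits. Of 10 genes that set or regulate it, 2 rose with age in WT mice (background 4.62% of genes) and 1 in KO mice (3.78%). Without replicate 5 these counts were 6 (8.89%) and 5 (10.6%), with 1 lower in KO mice (10.7%). Slc12a5, the neuronal chloride exporter KCC2, rose in WT mice by 0.19 ± 0.05 (adjusted p = 0.0382), by 0.17 ± 0.04 without replicate 5 (adjusted p = 0.0154), and had 0.09 (adjusted p = 0.143) after correcting for length and GC. In KO mice Slc12a5 had 0.20 ± 0.07 (adjusted p = 0.0968) and, without replicate 5, 0.19 ± 0.06 (adjusted p = 0.049). Slc12a2, the chloride importer NKCC1, fell in KO mice without replicate 5 by 0.28 ± 0.05 (adjusted p = 0.0012) from a value of -0.43 ± 0.14 (adjusted p = 0.0729) with all mice, and had -0.13 ± 0.06 (adjusted p = 0.183) in WT mice without replicate 5. The list also holds kinases that regulate these transporters. With all mice, Wnk2 rose by 0.34 ± 0.09 in WT (adjusted p = 0.0285) and Wnk1 by 0.20 ± 0.05 in KO mice (adjusted p = 0.0445), the latter at 0.21 (adjusted p = 0.0606) after correcting for length and GC. Without replicate 5, Wnk1, Wnk3, Oxsr1 and the carbonic anhydrase gene Car2 rose in both genotypes, by 0.30, 0.35, 0.21 and 0.45 in WT and by 0.22, 0.38, 0.25 and 0.42 in KO mice, and Wnk2 rose in WT mice by 0.26. After correcting for length and GC, Oxsr1 was called in both genotypes and Wnk2 in WT mice. Slc12a2 was called in KO mice with the same correction, at -0.39 (adjusted p = 0.00159). Wnk1 (adjusted p = 0.0722 in WT) and Wnk3 (0.10 in WT and 0.154 in KO) were not called. Neither were Car2 (adjusted p = 0.0567 in WT and 0.0833 in KO) and Slc12a5 in KO mice (0.159). With all mice Wnk3, Oxsr1 and Car2 were called in neither genotype.

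Among 9 genes of GABA-B receptors and their effectors, Kctd8, an auxiliary subunit, fell by 0.33 ± 0.08 in WT (adjusted p = 0.0182) and by 0.33 ± 0.08 in KO mice (adjusted p = 0.0242), and without replicate 5 its values were -0.32 and -0.31. Of 5 neurosteroid synthesis genes, Srd5a1, the reductase of the route to allopregnanolone, a steroid that potentiates delta-containing receptors, fell in both genotypes, with log2 fold changes of -1.20 ± 0.11 (adjusted p = 2.93e-05) in WT and -1.41 ± 0.11 (adjusted p = 2.36e-05) in KO mice. Without replicate 5 those of Srd5a1 were -1.18 and -1.46. When each mouse was left out in turn, the calls of Srd5a1 and Trak2 held in both genotypes and those of Gabre, Trak1 and Gphn in KO mice, while each other call of these lists named above for all mice was lost at least once.

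The genes whose deviations from the 4 group means were most like those of each receptor gene were sought over 14204 genes. The correlations describe 20 mice, in which the replicate 5 pair carries much of the variation, and the second value leaves that pair out. Gabra2 was most like Trpc1 (Pearson r = 0.99 over 20 mice and 0.85 over 18), Gabra3 most like Rab6a (0.95 and 0.81), Gabra4 most like Impad1 (0.98 and 0.84) and Gabra5 most like Atp1b1 (0.82 and 0.81). Gabra6 was most like Ccng2 (0.96 and 0.86), Gabrd most like Nacad (0.95 and 0.77), Gabrg1 most like Crkl (0.96 and 0.78) and Gabrg3 most like A330076H08Rik (0.96 and 0.87). Each is the top of a long ranking and was not tested.

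Among the receptor genes themselves, Gabra6 and Gabrd changed most with that pair. Their deviations correlated at r = -0.53 over 20 mice and r = 0.73 over the 18 others. The 18 mice also gave r = 0.68 for Gabra4 with Gabrg1 and r = 0.66 for Gabra3 with Gabra5, and negative values of r = -0.67 for Gabrd with Gabrg3, -0.63 for Gabra6 with Gabrg3 and -0.61 for Gabra5 with Gabra6. Over 20 mice Gabrd correlated negatively with each of the other 7 genes, from -0.53 to -0.92. In the 18 mice Cbln1, a granule cell marker, was among the 3 genes most like Gabra6, with r = 0.77, against 0.16 over 20 mice.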

How the data were processed

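The authors purified poly-A RNA from whole brains, made libraries with the TruSeq RNA Sample Prep Kit v2 and estimated transcript abundance with Salmon on GRCm38. The deposited signal values are gene-level counts that the authors normalized with DESeq2, for 19463 genes in 20 mice. The submitters' processing notes name Salmon 1.1.0, R 3.6.2 and DESeq2 1.26.0. Their normalization corrects for library size, so depth was estimated from the spacing of low values, and whole reads were not recovered. Counting error per value is therefore known only approximately. RNA sequencing libraries without molecular identifiers do not count independent molecules.

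Symbols and coordinates came from GENCODE M21, in which 19447 identifiers matched, and 0 columns were left unmapped. Groups came from the sample labels. Values were transformed to log2(value + 1), genes whose mean in the mice compared was under 10 were dropped, and a linear model per gene was fitted by limma (version 3.58.1, R 4.3.3) with trended moderation of the variance. On this scale a fold change understates the change of low genes. p was adjusted by the Benjamini-Hochberg method over all genes tested, and 0.05 was the threshold. All 8 receptor genes passed the filter in every comparison. The interaction used all 20 mice. ± after a log2 fold change is the standard error.

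The 8 receptor genes were all described. From each pathway list the counts called, the genes with the smallest p and the called genes behind a count of 5 or fewer were named, and not all such names are given. Likeness is the Pearson correlation of log2 values after removing group means, among genes whose mean was 50 or more. The receptor genes and the lists were chosen with earlier results of these data known. Different mice of a group are separate animals. Alternatives were fits without the intensity trend, quantile and trimmed mean scaling, other filters and pseudocounts, 1 fit over the whole series, the replicate number as a block, each mouse left out in turn, both P70 replicate 5 mice left out, and, chosen after seeing the data, a smooth correction of each mouse for transcript length and GC content.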

Additional observations from a re-analysis of the deposited data

Results flagged for a closer look

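Of 32 sets of 5 mice (8 receptor genes in 4 groups), 3 held a mouse whose gap to its nearest neighbour exceeded Dixon's critical value for 5 samples, where chance flags about 1 set in 20. All 3 were P70 replicate 5 mice at the low end. Gabra2 was 819.7 normalized counts in the P70 KO mouse, a gap of 0.80 of the group's range. Gabra3 was 2346.3 in the P70 WT mouse, a gap of 0.76, and Gabra4 was 1621.3 in that mouse, a gap of 0.71. The cause was not tested.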

How the results depend on the processing

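Under the alternatives the calls of the receptor genes in the genotype comparisons and the interaction stayed at 0. Without both P70 replicate 5 mice the number of genes called was 1 in KO against WT at P70, 3000 with age in WT and 3759 with age in KO mice, with 1 receptor gene higher in WT and 2 in KO mice. With the length and GC correction, chosen after seeing the data, 2956 and 2989 genes were called with age, and in each genotype 1 receptor gene was higher and 1 lower. Leaving out 1 mouse at a time gave 0 to 1 genes called at P21, 912 to 3000 with age in WT mice, 896 to 3759 in KO mice, and 0 to 1 and 0 to 2 receptor genes higher, the upper ends without replicate 5 of P70. The cause was not tested.

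The sign of a log2 fold change turned only for values that were not called. With the correction, KO over WT was 0.00 for Gabra2 and 0.00 for Gabra3 at P21 and -0.02 for Gabrd at P70, the age difference in WT mice was 0.01 for Gabra2, -0.04 for Gabrd and 0.03 for Gabrg1, that in KO mice was -0.04 for Gabrd and 0.01 for Gabrg1, and the interaction was 0.00 for Gabrd and -0.03 for Gabrg1. Without both replicate 5 mice the WT age difference was 0.13 for Gabra2, -0.07 for Gabrd and 0.09 for Gabrg1, the KO one 0.00 for Gabra5, -0.05 for Gabrd and 0.11 for Gabrg1, and the interaction 0.00 for Gabra4. Quantile normalization gave -0.01 for Gabrd in WT mice.

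Leaving out 1 mouse at a time, KO over WT at P21 ranged from -0.08 to 0.00 for Gabra2, -0.03 to 0.00 for Gabra3, -0.01 to 0.06 for Gabra6 and -0.02 to 0.03 for Gabrd. At P70 it ranged from -0.13 to 0.26 for Gabra2, -0.03 to 0.11 for Gabra3, -0.23 to 0.05 for Gabra4, -0.03 to 0.05 for Gabra5, -0.07 to 0.10 for Gabrd, -0.07 to 0.20 for Gabrg1 and -0.21 to 0.01 for Gabrg3. The WT age difference ranged from -0.10 to 0.13 for Gabra2, -0.07 to 0.08 for Gabrd and -0.11 to 0.09 for Gabrg1, and the KO one from -0.04 to 0.26, -0.05 to 0.07 and -0.11 to 0.11 for these genes and from -0.08 to 0.00 for Gabra5. The interaction ranged from -0.09 to 0.29 for Gabra2, -0.02 to 0.12 for Gabra3, -0.15 to 0.13 for Gabra4, -0.07 to 0.10 for Gabrd, -0.12 to 0.15 for Gabrg1 and -0.16 to 0.06 for Gabrg3.

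The labels give no shared origin for mice with the same replicate number, and not every pair correlated above 0.1, so the numbers were not taken as pairs. The correlation of deviations between KO and WT mice of a number was -0.009 to 0.26 at P21 and 0.075 to 0.705 at P70, the highest being replicate 5, and between ages -0.102 to 0.156 in WT and -0.119 to 0.16 in KO mice. At P70, 4 of 5 KO mice and 3 of 5 WT mice correlated best with their own number. With the replicate block 0 genes were called between genotypes at either age, 1265 with age in WT and 913 in KO mice, and 0 receptor genes were called. The block narrowed the interval of Gabra6 at P70 to -0.30 to -0.05 around -0.18 and that of Gabra5 at P21 to -0.20 to -0.01 around -0.11, which put both at an unadjusted p under 0.05, each with an adjusted p of 1.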
